A study of Mus musculus with 4 samples.

Results

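Hedgehog signalling genes were followed through adult neurogenesis in the mouse dentate gyrus, in nuclei labelled by an inducible Cre and sorted. The 9 genes taken were the transcription factors Gli1, Gli2 and Gli3, the receptor Ptch1, the transducer Smo, the coreceptors Gas1, Boc and Cdon, and the inhibitor Hhip. They were chosen by name as components of the pathway, with earlier results of these data known, and are 9 of 45706 features counted. Single-nucleus RNA sequencing (10x Genomics, 3' end) had been run on 4 libraries, w1, w2, w4 and w8, for which tamoxifen had been given 1, 2, 4 and 8 weeks before. All animals carried a tamoxifen-inducible Cre recombinase and the CAGfloxStop-Sun1/sfGFP reporter, so that the nuclear envelope of cells with active Cre, and of their progeny, was marked with Sun1-sfGFP, and green nuclei were sorted. Mice were of both sexes, on a C57Bl/6J background and given as 6 to 8 weeks old. Whether that is the age at tamoxifen or at collection is not stated, so the week of a library may also stand for the age of its animals. Each library pooled 4 left dentate gyri, so 1 week is 1 pool, no week has a replicate, and cells in which the driver of Cre was never active were not sampled by design.

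Hedgehog ligands bind Ptch1, a membrane protein that otherwise keeps Smo inactive, and active Smo signals from the primary cilium to the Gli transcription factors. Gas1, Boc and Cdon bind the ligand beside Ptch1 and assist reception, while Hhip binds and sequesters it. Gli1, Ptch1 and Hhip are themselves classical transcriptional targets of the pathway, so they serve both as components and as readouts, whereas Gli3 acts largely as a repressor when ligand is absent and Gli2 largely as an activator when it is present. In the adult hippocampus, Sonic hedgehog is known to act on the stem cells of the dentate gyrus.

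In GRCm38 the 9 genes lie at chr10:127329882-127341974 (Gli1, minus strand), chr1:118834132-119053619 (Gli2, minus), chr13:15463235-15730026 (Gli3, plus), chr13:63508328-63573598 (Ptch1, minus), chr6:29735503-29761365 (Smo, plus), chr13:60174405-60177365 (Gas1, minus), chr16:44485049-44558897 (Boc, minus), chr9:35421128-35507652 (Cdon, plus) and chr8:79965851-80058006 (Hhip, minus). Gas1 has no intron, and the 8 others span 12093 to 266792 bases of mostly intron, which counts in nuclei because exons and introns were both read. Of the genes that overlap them, Gm6556, on the opposite strand at the start of Gli3, held 34 UMIs (unique molecular identifiers, 1 per captured RNA molecule) against 4993 of Gli3, and the others that were counted held at most 3.

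Start regions from RefSeq (GRCm38.p6, 250 bases before to 50 after the start) were at hand for 7 of the 9 genes. Those of Gli2, Gli3 and Ptch1 are shown, 5' to 3' on the strand of the gene, because these are the genes of the set that were read most in stem cells and fell together afterwards. Capitals mark ACCACCC or its reverse complement GGGTGGT, the core within the Gli consensus GACCACCCA.
Gli2, chr1:119053570-119053869, minus strand: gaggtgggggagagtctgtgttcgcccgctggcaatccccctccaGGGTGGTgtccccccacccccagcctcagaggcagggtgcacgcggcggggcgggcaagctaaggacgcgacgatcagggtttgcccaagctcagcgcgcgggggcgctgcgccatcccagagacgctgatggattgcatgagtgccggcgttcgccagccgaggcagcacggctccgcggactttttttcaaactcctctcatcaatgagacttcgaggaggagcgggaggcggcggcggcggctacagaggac
Gli3, chr13:15463473-15463772, plus strand: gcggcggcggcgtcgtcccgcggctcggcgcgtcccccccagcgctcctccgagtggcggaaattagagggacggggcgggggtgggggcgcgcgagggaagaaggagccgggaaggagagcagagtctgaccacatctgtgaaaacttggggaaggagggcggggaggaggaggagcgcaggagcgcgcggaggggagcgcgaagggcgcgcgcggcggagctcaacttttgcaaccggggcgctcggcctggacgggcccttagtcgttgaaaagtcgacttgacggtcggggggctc
Ptch1, chr13:63565686-63565985, minus strand: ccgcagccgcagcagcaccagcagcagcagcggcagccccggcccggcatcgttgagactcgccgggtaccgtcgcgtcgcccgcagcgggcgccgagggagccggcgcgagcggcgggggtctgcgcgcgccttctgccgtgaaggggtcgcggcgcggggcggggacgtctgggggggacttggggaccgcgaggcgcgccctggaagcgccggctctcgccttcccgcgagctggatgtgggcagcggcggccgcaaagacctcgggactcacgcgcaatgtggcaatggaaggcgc
The full 9-letter consensus, searched on both strands, was in none of the 7 regions and in 0.253% of the 32851 RefSeq start regions of that length. The 7-letter core was in 1 of the 7, that of Gli2, and in 4.61% of all regions. These letters are a description of a short window and not a binding site. The regions were rich in CpG dinucleotides, with 47 in Ptch1, 39 in Gli3, 30 in Hhip, 28 in Gli2, 17 in Smo and 17 in Gas1 against a median of 7 over all regions, whereas that of Cdon held 3. The windows of Gli3, Ptch1 and Cdon (the last at chr9:35451826-35452125) lie inside the genes as annotated above, that of Gli3 close to the annotated start and those of Ptch1 and Cdon further in.

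The authors assigned 14367 of 17046 barcodes to 13 clusters, and the library totals over these nuclei ran from 13227971 to 28595331 UMIs, with medians of 4369 to 7703.5 UMIs per nucleus. The clusters are astrocytes (Astro, 67 nuclei), radial glia-like cells (RGL, 1387), neural progenitor cells (NPC, 211), neuroblasts (NB1, 2578, and NB2, 726), immature granule cells (GCimm1, 2442, and GCimm2, 979), young granule cells (GCyoung, 2176), mature granule cells (GCmat1, 3356, and GCmat2, 209), and, off the trajectory, oligodendrocyte precursors (OPC, 131), oligodendrocytes (Oligo, 45) and pericytes (Peri, 60). The week and the cluster are tied: RGL held 486, 461, 357 and 83 nuclei in w1, w2, w4 and w8, and 2927 of the GCmat1 nuclei came from w8. The 5 astrocyte markers checked were all highest in Astro, and all 7 progenitor markers were highest in NPC. The RGL markers Thrsp, Hopx and Notch2 were highest in RGL, while Lpar1, Sox5 and Nes were highest in Peri, OPC and NPC. In Peri, Tbx18 and Slc6a13 stood at 313 and 648 UMIs per 1000000 and Pdgfrb at 101, each the highest of any cluster, although Pdgfrb was at 89.5 in Astro, and the pericyte gene Rgs5 was at 0. Between libraries 27 barcodes were shared, 22 of them among the nuclei kept.

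Levels are given as UMIs of the gene per 1000000 UMIs of the same nuclei (CPM), with an exact 95% Poisson interval that covers counting error only. A count of 0 allows up to 3 counts. A library enters on its own where it holds at least 10 nuclei of the cluster.

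**Figure D1:**
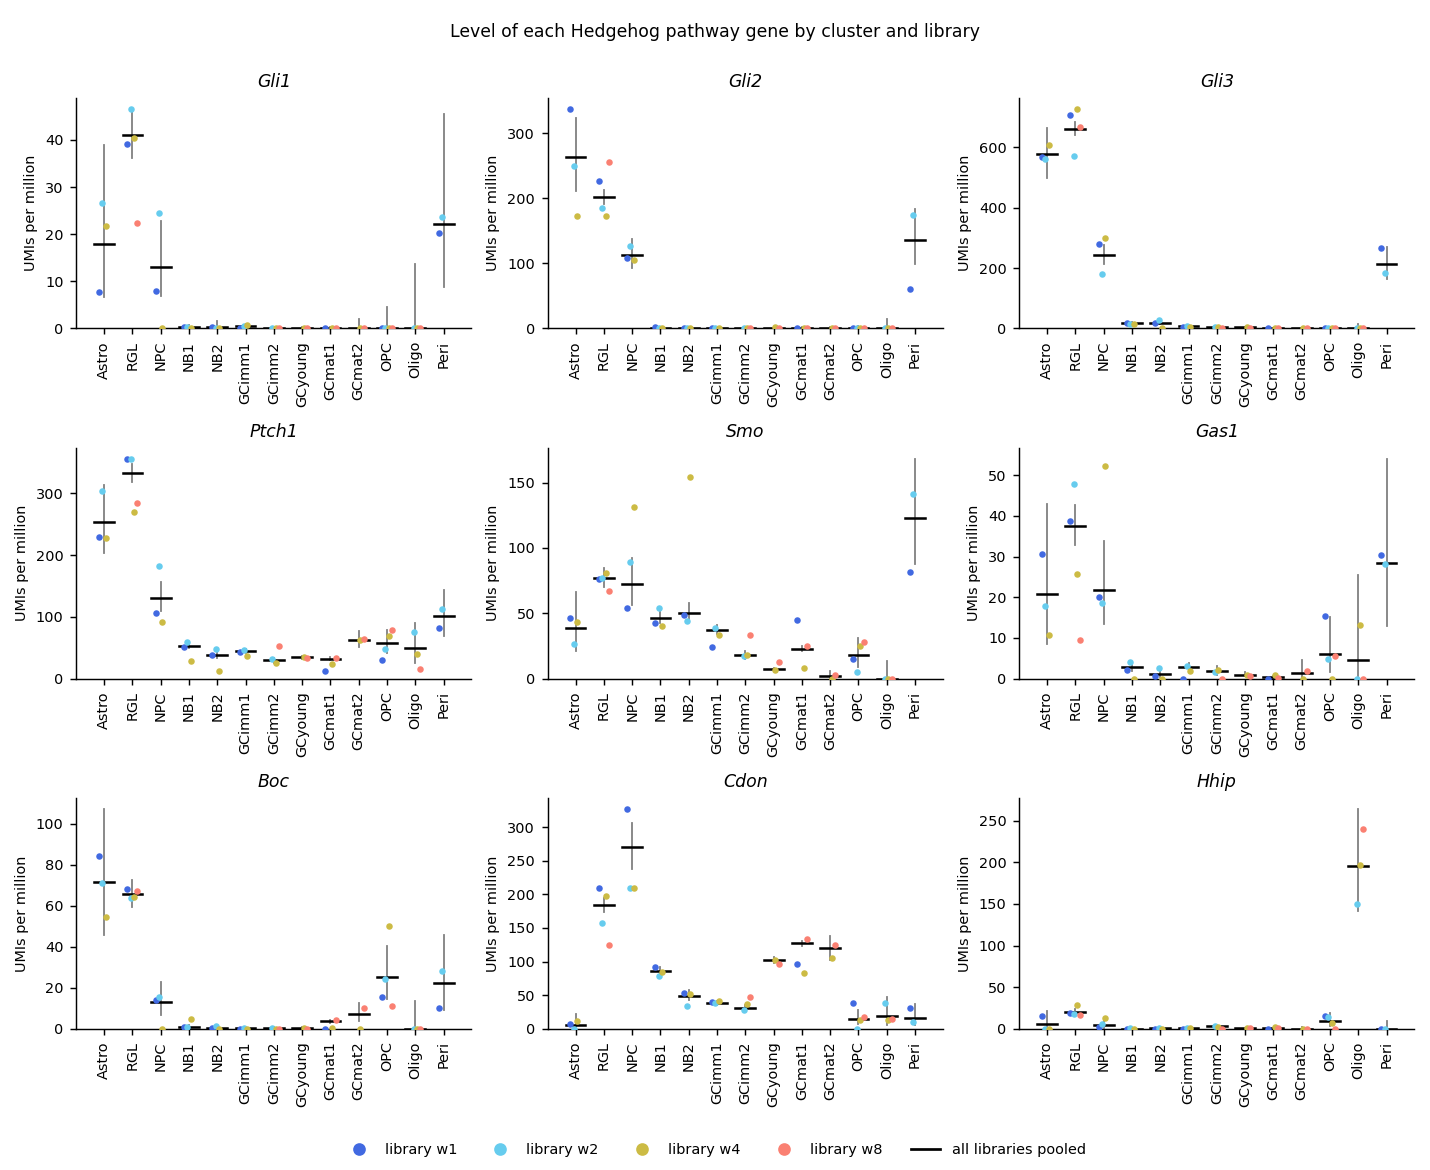
Level of each gene (vertical axis, UMIs per 1000000) in the 13 clusters (horizontal axis). Coloured points are libraries with at least 10 nuclei of the cluster, black lines pool all libraries, and grey lines are exact 95% Poisson intervals of the pool. In the 7 neuron clusters the pools of Gli1 and Gli2 lie at no more than 1.33 CPM and Gli3 at no more than 18.4, those of Cdon and Ptch1 at 29.7 or more, and Hhip peaks in Oligo at 196 CPM.

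The Gli genes were read in stem cells, astrocytes and progenitors and were lower in each neuron cluster, with pooled levels of Gli1 and Gli2 of no more than 1.33 CPM there and of Gli3 of no more than 18.4. Gli1, the factor most used as a readout of the pathway, stood in RGL at 39.1, 46.5, 40.5 and 22.3 CPM in w1, w2, w4 and w8, the last from 7 UMIs. Its pooled level of 41.1 CPM in RGL (interval 36.2 to 46.6, 251 UMIs) was followed by 22.1 in Peri, 17.9 in Astro and 13.1 in NPC, which rest on 7, 6 and 12 UMIs and whose intervals overlap one another. Those of Peri (8.89 to 45.6) and Astro (6.57 to 39.0) also overlap that of RGL. In the 12466 neurons of the 7 neuron clusters 12 Gli1 UMIs were found, a level of 0.144 CPM, so that RGL stood 286 times higher (counting interval 161 to 561). A Gli1 UMI was present in 15.4% of RGL nuclei, 7.46% of Astro and 0.0963% of neurons, at median depths of 4091 UMIs in RGL, 4670 in Astro and 4057.5 to 8138 in the neuron clusters.

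Gli2, the main activator of the family, was at least as high in astrocytes as in stem cells. It stood at 337, 249 and 173 CPM in Astro of w1, w2 and w4 and at 227, 185, 172 and 255 CPM in RGL of w1, w2, w4 and w8, and these ranges overlap, although Astro was the higher in 3 of 3 libraries that held both. NPC followed at 108, 126 and 105 CPM in w1, w2 and w4, below every RGL library. Neurons held 0.875 CPM, from 73 UMIs in 12466 nuclei. Gli3 was the most read of the Gli genes in RGL, at 707, 571, 727 and 666 CPM in w1, w2, w4 and w8, against 567, 561 and 607 in Astro and 281, 179 and 301 in NPC of w1, w2 and w4. Astro and RGL overlap for Gli3 and NPC lies below both. In the neuron clusters Gli3 stood at 17.3 CPM in NB1, 18.4 in NB2, 8.09 in GCimm1, 3.21 in GCimm2, 3.00 in GCyoung and 1.20 in GCmat1, where the intervals of NB2 and NB1 overlap, as do those of GCimm2 and GCyoung. A Gli3 UMI was present in 5.51% of NB1 nuclei and 3.11% of GCimm1, against 0 of 131 OPC nuclei, which allows up to 2.29%, at median depths of 4057.5, 5045.5 and 4750 UMIs. Slc1a2, a glutamate transporter gene of astrocytes, went down along the same clusters, at 444, 323, 273, 203, 201 and 114 CPM, against 3381 in RGL. The share of the neuronal Gli3 counts that is RNA from outside the nucleus was not tested.

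Ptch1, the ligand receptor and a target gene, had its highest pooled level in RGL and was still read in every cluster. It stood in RGL at 356, 356, 269 and 284 CPM in w1, w2, w4 and w8, in Astro at 229.8, 303 and 228 in w1, w2 and w4, and in NPC at 106, 182 and 91.7. Each NPC library lay below every RGL library. The ranges of Astro and RGL overlap, although RGL was the higher in 3 of 3 libraries that held both, and this difference was not called. The pooled levels of 333 CPM in RGL (318 to 348), 254 in Astro (203 to 314) and 131 in NPC (109 to 157) do not overlap. In neurons it stood at 37.9 CPM, and 20.0% of the 12466 neurons held a Ptch1 UMI. The neurons held 3157 UMIs of Ptch1 to 474 of Gli3 where RGL held 2030 to 4037. Whether part of the neuronal Ptch1 counts is RNA from outside the nucleus was not tested. The other inhibitor, Hhip, was sparse along the lineage, at 18.3, 17.4, 28.7 and 15.9 CPM in RGL of w1, w2, w4 and w8, 4.38 CPM in NPC from 4 UMIs and 0.696 CPM in neurons. Its peak was outside the lineage, in Oligo, as given further on.

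Smo, the transducer held in check by Ptch1, was lower in neuroblasts than in stem cells by less than any other gene of the 9, with a pooled ratio of RGL to NB1 of 1.66 (counting interval 1.46 to 1.88) beside 2.13 for Cdon (1.95 to 2.32) and 6.26 for Ptch1 (5.71 to 6.88). RGL held 76.5, 77.0, 81.0 and 66.9 CPM in w1, w2, w4 and w8, NPC 54.1, 89.3 and 131 in w1, w2 and w4, and NB1 42.4, 53.8 and 40.3. The NPC libraries straddle those of RGL, and each NB1 library lies below every RGL library. Along the granule cells the pooled level went from 37.2 CPM in GCimm1 through 18.0 in GCimm2 to 6.99 in GCyoung, then 22.9 in GCmat1 and 1.92 in GCmat2, and no interval of these overlaps the next.

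The coreceptors did not share a pattern. Gas1, a membrane-anchored coreceptor, stood at 38.7, 47.9, 25.8 and 9.56 CPM in RGL of w1, w2, w4 and w8, the last from 3 UMIs, at 21.9 CPM in NPC and at 1.32 in neurons. Boc, a transmembrane coreceptor of the immunoglobulin superfamily, was level across RGL, with 68.3, 63.9, 64.0 and 66.9 CPM in w1, w2, w4 and w8, was at 84.3, 71.2 and 54.2 in Astro of w1, w2 and w4, and stood at 13.1 CPM in NPC and 1.64 in neurons. Cdon, the relative of Boc, went the other way. It was close to absent from the astrocyte counts, with 1, 0 and 1 UMI in Astro of w1, w2 and w4, against 209, 157, 198 and 124 CPM in RGL and 327, 209 and 209.7 in NPC of w1, w2 and w4. RGL thus lay 30.9 times above Astro (counting interval 8.53 to 255). Cdon was also read in neurons, at 90.3 CPM, and 58.9% of GCmat1 nuclei held a UMI of it against 2.99% of Astro, at median depths of 8138 and 4670 UMIs.

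Longer genes may offer more intron to read, so levels were also divided by gene length. For 3' end counts this is a rough scale. How the counts depend on length was not tested, and exon and intron reads were not told apart. Per 10 kb of gene, RGL held 127 CPM of Gas1, 51.0 of Ptch1, 34.0 of Gli1, 29.9 of Smo, 24.8 of Gli3, 21.3 of Cdon, 9.18 of Gli2, 8.90 of Boc and 2.19 of Hhip. On this scale the level of Gli1 exceeds that of Gli3, although the UMI counts order them the other way. Gas1, without introns, is the hardest to compare on this scale.

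Tests between clusters used UMI counts summed per library and cluster, 29 sums with at least 10 nuclei, in 1 edgeR quasi-likelihood fit of 13513 genes with cluster and library as terms. All 9 genes passed the filter on low counts. Calls needed a 1.5-fold difference or more together with an adjusted p (Benjamini-Hochberg) no larger than 0.05. The SE given with a log2 difference is its absolute value divided by the square root of the F statistic of the test. It restates the test and is not a separately estimated standard error. Because the authors drew the clusters from these same expression data, p-values here describe how clusters differ and are no independent evidence of cell types, and pools hold several mice, so they do not measure the spread between animals.

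**Figure D2:**
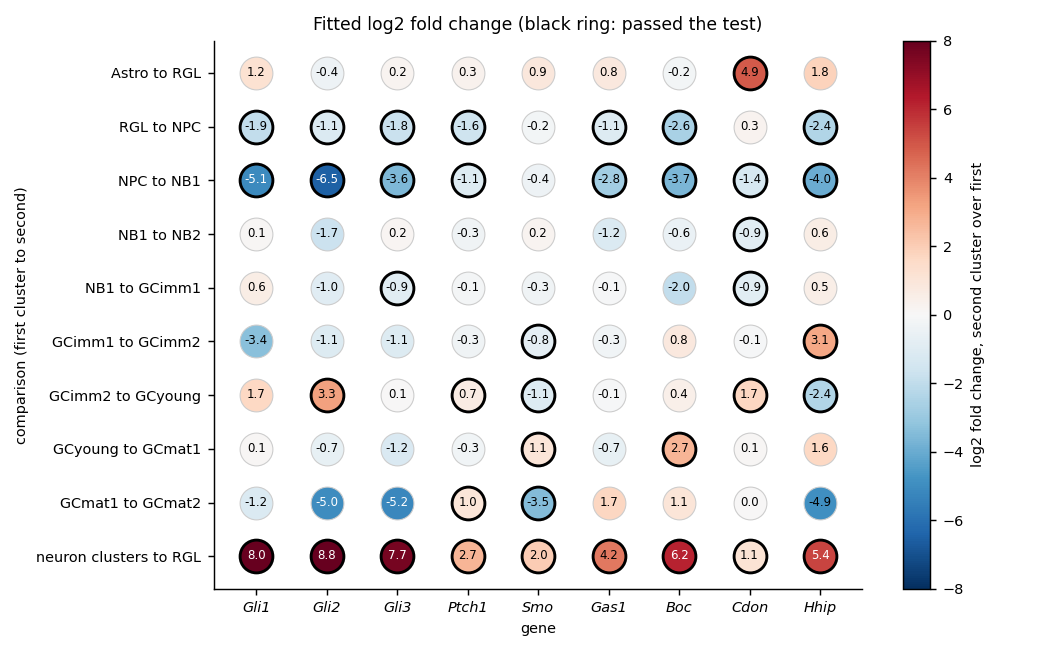
Fitted log2 fold change of each gene (columns) in each comparison (rows), colour and number giving the second cluster over the first. Black rings mark genes that passed the test: 1 gene between Astro and RGL, 7 from RGL to NPC, 8 from NPC to NB1 and 9 between the neuron clusters and RGL.

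Astrocytes and radial glia-like cells share many markers, and the comparison asks which genes tell them apart. Cdon was the 1 gene of the 9 called, higher in RGL by 4.88 on the log2 scale (SE 0.59, adjusted p 7.7e-09) and in 3 of 3 libraries that held both clusters. The 8 others were not called. Gli1 differed by 1.21 (SE 0.55, adjusted p 0.185), Gli2 by -0.40 (SE 0.20, adjusted p 0.251), Gli3 by 0.22 (SE 0.19), Ptch1 by 0.35 (SE 0.21), Smo by 0.90 (SE 0.47), Gas1 by 0.83 (SE 0.58), Boc by -0.20 (SE 0.39) and Hhip by 1.82 (SE 0.91). In the 67 Astro nuclei Gli1, Gas1 and Hhip rest on 6, 7 and 2 UMIs. Among these uncalled genes, the pooled ratio of RGL to Astro had a counting interval above 1 for Gli1, Ptch1 and Smo. The ratios were 2.30 (1.04 to 6.32), 1.31 (1.06 to 1.65) and 1.99 (1.15 to 3.77). For Gli2 it lay below 1, at 0.767 (0.618 to 0.964), and for Gli3, Gas1, Boc and Hhip it included 1. Such intervals leave out the spread between libraries. Of all genes 9.58% were called in either direction, of which 49.7% were higher in RGL, a share that was 34.8% under RLE scaling and 26.3% in DESeq2. The median over all genes was 0.27, and relative to it Gli3 and Ptch1 lie at the median or close to it. With RLE scaling that median was 0.07 and Gli2 also passed, lower in RGL by 0.61 on the log2 scale (adjusted p 0.040).

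The step from quiescent stem cells to dividing progenitors is the entry into neurogenesis. From RGL to NPC 7 of the 9 genes fell, where 15.9% of all genes were called lower and 13.7% higher. The median of the 9 was -1.64 against -0.05 over all genes. Gli1 fell by 1.95 on the log2 scale (SE 0.42, adjusted p 2.0e-04), Gli2 by 1.14 (SE 0.19, adjusted p 3.0e-06) and Gli3 by 1.78 (SE 0.19, adjusted p 3.9e-11), each lower in 3 of 3 libraries. Ptch1 fell by 1.64 (SE 0.19, adjusted p 4.0e-10) and Hhip by 2.39 (SE 0.66, adjusted p 0.0037). Boc fell by 2.58 (SE 0.43, adjusted p 2.2e-06), the largest fitted change of the 9. The 1.07 drop of Gas1 (SE 0.39, adjusted p 0.032) was in 2 of 3 libraries and was not called without w1 (adjusted p 0.247) or without w2 (0.415), with DESeq2 (0.141), after thinning (0.244) or without the library term (0.173). The fall of Hhip, from 4 NPC UMIs, was not called without w1. Smo, at -0.25 (SE 0.27), and Cdon, at 0.26 (SE 0.18), were not called. Smo was higher in NPC in 2 of 3 libraries and Cdon in 3 of 3. The pooled level of Cdon was the highest of any cluster in NPC, at 270.4 CPM (238 to 306) against 184 in RGL (174 to 195).

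From NPC to the postmitotic neuroblasts NB1, 8 of the 9 fell, where 14.6% of all genes were called lower, and the median of the 9 was -3.59 against 0.06. Gli2 fell by 6.55 on the log2 scale (SE 0.35, adjusted p 3.2e-21), from 113 to 1.01 CPM. Gli3 fell by 3.59 (SE 0.23, adjusted p 4.4e-18), from 243 to 17.3 CPM. Gli1 fell to 3 UMIs in 2578 nuclei, and NPC lay 47.7 times higher (counting interval 12.9 to 264). Its NPC counts were 4, 8 and 0 UMIs in w1, w2 and w4, so the fall was in 2 of 3 libraries. Boc fell from 13.1 to 0.826 CPM, in 2 of 3 libraries, Gas1 from 21.9 to 2.75 and Hhip from 4.38 to 0.184, the last from 4 and 2 UMIs, with adjusted p of 1.2e-04, 3.1e-05 and 0.011 in edgeR. Without w1, which holds 112 of the 211 progenitors, neither Boc nor Hhip was called. Ptch1 and Cdon fell less, by 1.11 (SE 0.21) and 1.35 (SE 0.19). Smo, at -0.43 (SE 0.28, adjusted p 0.273), was not called.

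Against the mean of the 7 neuron clusters, all 9 genes were higher in RGL, where 26.0% of all genes were called higher and 21.9% lower. The median of the 9 was 5.42 against 0.01. The log2 differences were 8.77 for Gli2 (SE 0.18), 7.96 for Gli1 (SE 0.33), 7.68 for Gli3 (SE 0.14), 6.15 for Boc (SE 0.24), 5.42 for Hhip (SE 0.37), 4.23 for Gas1 (SE 0.27), 2.73 for Ptch1 (SE 0.10), 2.01 for Smo (SE 0.17) and 1.15 for Cdon (SE 0.11), with adjusted p from 3.7e-43 for Gli3 to 5.8e-13 for Cdon in edgeR. This mean weights clusters equally and some held no UMI. The SE are therefore no measure of how precisely such differences are known, and pooled counts are a plainer measure. They gave 230.1 times for Gli2, 116 for Gli3, 40.0 for Boc, 29.0 for Hhip, 28.5 for Gas1, 8.79 for Ptch1, 3.05 for Smo and 2.04 for Cdon (counting intervals 182 to 296, 106 to 128, 32.9 to 48.9, 21.0 to 40.3, 22.6 to 36.1, 8.31 to 9.30, 2.75 to 3.37 and 1.92 to 2.17). All but Cdon were higher in RGL in 4 of 4 libraries, and Cdon in 3 of 4, with w8 the exception, where RGL stood at 124 CPM and GCmat1 at 133.

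Within the neurons most of the genes stayed low, and the calls concern Cdon, Smo, Ptch1, Hhip, Gli3, Gli2 and Boc. Cdon traced a dip and a return. It fell from NB1 to NB2 by 0.89 on the log2 scale (SE 0.21, adjusted p 0.0066) and from NB1 to GCimm1 by 0.91 (SE 0.18, adjusted p 1.7e-04), did not pass from GCimm1 to GCimm2 (-0.09, SE 0.21), and rose from GCimm2 to GCyoung by 1.71 (SE 0.21, adjusted p 7.5e-09). The levels were 86.5 CPM in NB1, 49.4 in NB2, 38.2 in GCimm1, 31.3 in GCimm2, 102 in GCyoung, 127 in GCmat1 and 119.9 in GCmat2. The rise was in both libraries that held both clusters, from 36.2 to 103 CPM in w4 and from 46.6 to 96.2 in w8. The value of GCimm2 in w8 comes from only 28 nuclei with 150112 UMIs of all genes. The rise was called without each library in turn. The fall to NB2 was not called without w1 (adjusted p 0.103) or w2 (0.261), nor without the library term (0.136). Of all genes 2.94% were called from NB1 to NB2, 12.5% from NB1 to GCimm1, 9.43% from GCimm1 to GCimm2 and 18.9% from GCimm2 to GCyoung, in either direction.

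**Figure D3:**
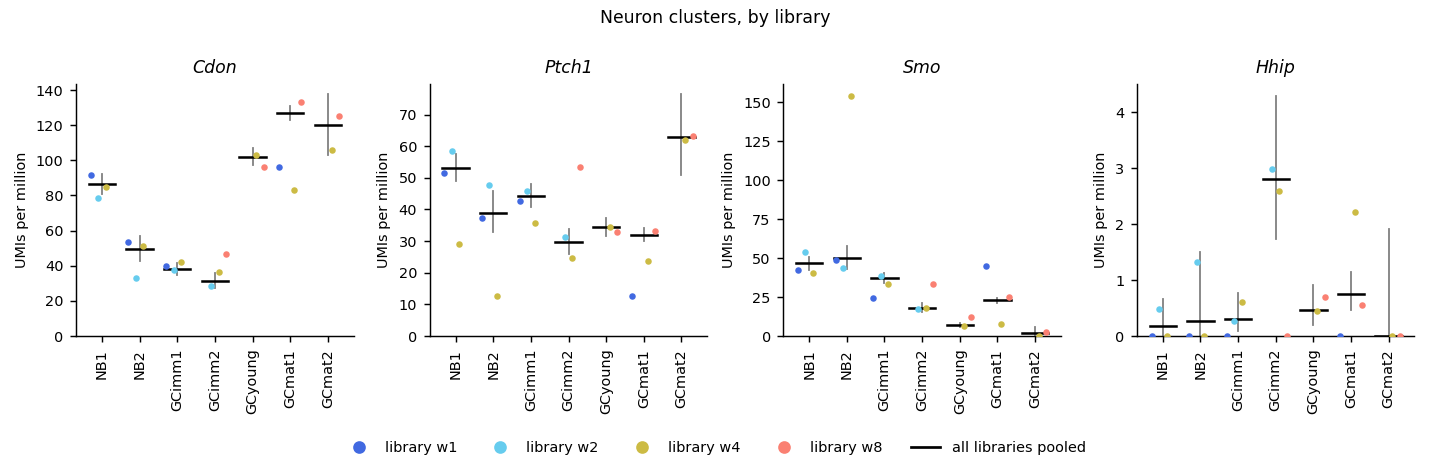
Levels of Cdon, Ptch1, Smo and Hhip (vertical axes, UMIs per 1000000) in the 7 neuron clusters. Points are libraries with at least 10 nuclei of the cluster, black lines the pool and grey lines its exact 95% Poisson interval. Cdon is lowest in GCimm2 at 31.3 CPM and is at 102 in GCyoung, while Smo is at 6.99 in GCyoung and at 22.9 in GCmat1.

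Smo moved against Cdon at the same step. It fell from GCimm1 to GCimm2 by 0.81 on the log2 scale (SE 0.24, adjusted p 0.019) and from GCimm2 to GCyoung by 1.08 (SE 0.31, adjusted p 0.0069), rose from GCyoung to GCmat1 by 1.05 (SE 0.29, adjusted p 0.020), and fell from GCmat1 to GCmat2 by 3.45 (SE 0.68, adjusted p 2.4e-04), where GCmat2 held 3 UMIs in 209 nuclei. The falls to GCimm2 and to GCyoung were not called without w4, by DESeq2 or without the library term, and the fall to GCimm2 was not called without w2. Without w4 the difference from GCimm2 to GCyoung was -0.23, and that fall was also not called after thinning (adjusted p 0.068). The fall to GCmat2 was not called without w8 (adjusted p 0.241) or after thinning (0.173). The rise to GCmat1 came from w8, where Smo stood at 12.5 CPM in GCyoung and 25.0 in GCmat1. In w4 the levels were 6.52 and 7.76 with overlapping intervals, and the rise was not called without w4 (adjusted p 0.199) or w8 (0.936).

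Boc behaved in the same way at that step, rising by 2.73 on the log2 scale (SE 0.66, adjusted p 0.0062), with 3.85% of all genes called. GCmat1 held 103 Boc UMIs in w8, at 4.07 CPM, but 2 in w4, at 0.555, beside 0.317 CPM in GCyoung of w4 and 0 UMIs in GCyoung of w8. The call was lost without w4 (adjusted p 0.109) and without w8 (1.00). In GCmat1 of w8, nuclei without a deposited pseudo-time (216 of 2927) held 43.4 CPM of Smo against 23.0 in those with one, whereas Boc stood at 2.92 and 4.19 CPM with overlapping intervals, a split chosen after the data were seen. The study's methods left GCmat1 nuclei with a strong signal of ventral genes out of the pseudo-time, and whether the nuclei without one are those was not checked. The number of such nuclei given there is larger than the 220 GCmat1 nuclei without a pseudo-time over all libraries here. Both clusters were present in w4 and w8. Within GCmat1 the interval of Smo in w8 (23.0 to 27.0) lay above that in w4 (5.16 to 11.2), and that of Boc in w8 (3.32 to 4.93) above that in w4 (0.0672 to 2.00). Within w8 the interval of GCyoung lay below that of GCmat1 for Smo (7.44 to 19.8) and for Boc (0 to 2.09). Within GCyoung the intervals of w4 (5.32 to 7.91 for Smo, 0.103 to 0.739 for Boc) overlap those of w8, and within w4 those of the 2 clusters overlap for both genes.

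Ptch1 rose from GCmat1 to GCmat2 by 1.02 on the log2 scale (SE 0.24, adjusted p 0.0019), with 7.30% of all genes called. It stood at 23.6 and 61.9 CPM in w4 and at 33.1 and 63.2 in w8, and 35.9% of GCmat2 nuclei held a UMI against 21.7% of GCmat1. The call was lost without w4 (adjusted p 0.098). From GCimm2 to GCyoung Ptch1 was called higher by 0.68 (SE 0.22, adjusted p 0.018), but the pooled levels of 29.7 and 34.3 CPM have overlapping intervals and the libraries split 1 to 1. That call was lost without w2 (adjusted p 0.265) and without w4 (0.896). Hhip had 15 UMIs in GCimm2 of w2 and 6 in w4, and was called higher from GCimm1 by 3.08 (SE 0.73, adjusted p 0.0019) and lower in GCyoung by 2.41 (SE 0.71, adjusted p 0.010). The 21 UMIs lay in 15 of 979 nuclei, and neither call held without w2 (adjusted p 0.607 and 0.180), nor the second without w4 (0.826). From GCimm2 to GCyoung the libraries that held both clusters split 1 to 1 for Hhip. Gli3 fell from NB1 to GCimm1 by 0.92 (SE 0.27, adjusted p 0.013), which was not called without w1 (adjusted p 0.198) or w4 (0.102). The called rise of Gli2 into GCyoung rests on 1 UMI in GCimm2 and 23 in GCyoung, a ratio of GCimm2 to GCyoung of 0.101 (counting interval 0.00244 to 0.620), and was lost without w2 or w4.

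The stem cells were also followed by week, without a test, since each week is 1 pool. Animal age at collection may differ between the weeks, and its part was not tested. Gas1 in w2 (interval 39.1 to 58.2 CPM) lay above w4 (17.9 to 35.8), and w8 (1.97 to 27.9) lay below w1 (31.1 to 47.6) and w2. Ptch1 in w4 (242 to 298) lay under w1 (332 to 381) and w2 (331 to 382). Gli3 in w2 (539.6 to 604) lay under w1 (673 to 742) and w4 (682 to 773), and Cdon in w8 (88.4 to 169.9) under w1 (191 to 229) and w4 (175 to 223), with w2 (141 to 175) also under w1. Gli2 in w1 (208 to 247) lay above w2 (167 to 204) and w4 (151 to 196), and in w8 (202 to 317) above w4. The other pairs of weeks overlap for these 5 genes, and all pairs do for Gli1, Smo, Boc and Hhip. The library w8 holds 83 RGL nuclei, and its intervals overlap those of w1 for all of the genes but Gas1 and Cdon. Marker levels moved as well. The 5 astrocyte markers summed to 3935, 3361, 3239 and 5065 CPM in RGL of w1, w2, w4 and w8, the 5 immature neuron markers to 107, 191, 78.8 and 25.5, and the 5 mature neuron markers to 33.1, 39.5, 97.9 and 95.6. Their part in the differences between weeks was not tested.

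**Figure D4:**
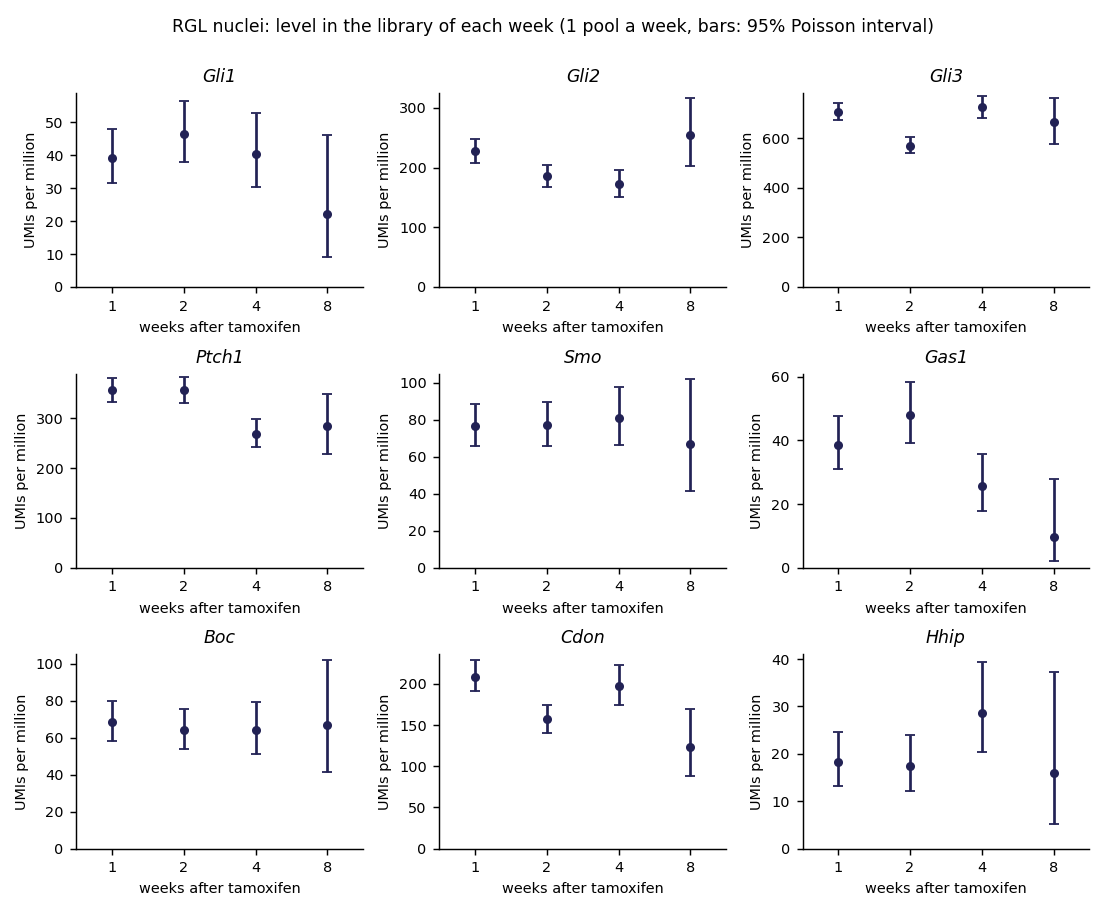
Level of each gene in RGL nuclei (vertical axis, UMIs per 1000000) in the library of each week after tamoxifen (horizontal axis, not to scale in time). Points are 1 pooled library each and bars are exact 95% Poisson intervals, which cover counting error only. Gas1 goes from 47.9 CPM in w2 to 9.56 in w8, and Boc lies between 63.9 and 68.3 in all 4 weeks.

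RGL nuclei were also ordered by the deposited pseudo-time and cut into 3 parts of nearly equal size. Gli3 stood at 721, 637 and 603 CPM from the earliest to the latest part (intervals 688 to 755, 602 to 673 and 566 to 641), so that the earliest part lay above both others, and its order was the same in each of the 4 libraries. Gli2 stood at 218, 201 and 178 CPM (199.6 to 237, 181 to 222 and 159 to 199.7). Its neighbouring parts overlap, and w4 did not keep the order, at 168, 177 and 172. Ptch1, at 348, 330.4 and 313 CPM, and Smo, at 83.0, 77.3 and 68.4, have overlapping intervals throughout, and in w1 the earliest part was not the highest (349, 365 and 357 for Ptch1, 73.7, 82.8 and 73.7 for Smo). Gli1 had no such order, at 44.3, 33.3 and 45.6 CPM. Hhip stood at 27.8 CPM in the earliest part (21.6 to 35.2) and at 14.9 (9.95 to 21.3) and 15.0 (9.71 to 22.2) afterwards, with w4 at 32.2, 20.4 and 33.4. Gas1, at 30.2, 43.0 and 42.0 CPM, has overlapping intervals. Cdon, at 167, 203 and 188 CPM, also overlaps between neighbouring parts, and its low start was not that of each library, with 208, 215 and 204 in w1, 116, 218 and 146 in w2 and 129, 66.2 and 189.7 in w8. The authors derived pseudo-time from the same expression values, so these orders are a description.

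Most stem cells held UMIs of at least 2 of the genes. After thinning each nucleus to 2000 UMIs, 93.5% of 1372 RGL nuclei (92.1 to 94.8, exact binomial) held a UMI of at least 1 of the 9, 70.0% of at least 2 and 33.7% of at least 3. In Astro the shares were 91.0%, 61.2% and 20.9%, in NPC 74.3%, 36.4% and 11.2%, and in NB1 31.5%, 3.62% and 0.322%. Nuclei with a Gli1 UMI were then set beside the other RGL nuclei. With all UMIs, each of the 8 other genes was found more often beside Gli1, for example Ptch1 in 71.0% of 214 nuclei with Gli1 (64.5 to 77.0) against 58.7% of 1173 without (55.8 to 61.5), but these nuclei were also deeper, with medians of 4657.5 against 4008 UMIs. At 2000 UMIs Ptch1 stood at 48.5% of 101 against 40.4% of 1271, with overlapping intervals, and 4 of the 8 genes were more frequent beside Gli1. Gli2 was then less frequent, at 18.8% (11.7 to 27.8) against 31.3% (28.8 to 33.9). Averaged over all possible draws of 2000 UMIs, a calculation added after the data were seen, Gli2 stood at 28.5% and 31.2% and Ptch1 at 46.7% and 40.5%, so much of the gap in Gli2 was that of 1 draw.

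**Figure D5:**
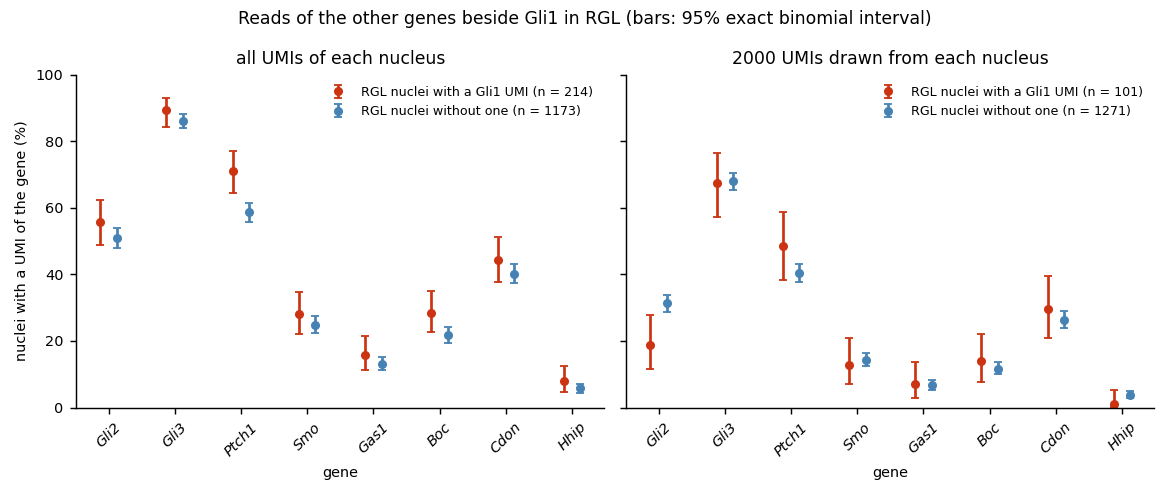
Share of RGL nuclei with a UMI of each other gene (vertical axis, percent) among nuclei with a Gli1 UMI (red) and without one (blue), for all UMIs (left) and for 2000 UMIs drawn per nucleus (right). Bars are exact 95% binomial intervals. Ptch1 is at 71.0% and 58.7% on the left and at 48.5% and 40.4% on the right, where the intervals overlap.

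Outside the lineage, the 3 small clusters carried parts of the pathway. Oligo held the most Hhip of any cluster, at 150.0, 197 and 239.7 CPM in w2, w4 and w8, so that all 3 libraries lay above the highest RGL library, at 28.7. Pooled, RGL stood at 0.103 of Oligo (counting interval 0.0722 to 0.149), and 53.3% of the 45 Oligo nuclei held a UMI. Gli1, Gli2 and Gli3 had no UMI in OPC or Oligo, so RGL lay at least 45.3 times above OPC for Gli2 and at least 149 times for Gli3, with 9.26 times as the bound for Gli1. Ptch1 was nonetheless read there, at 57.8 CPM in OPC and 50.1 in Oligo, and Boc at 25.2 in OPC. Peri carried all 3 Gli genes, at 22.1, 136 and 212 CPM, and the highest Smo of any cluster, at 123 CPM (87.6 to 168) against 77.2 in RGL (70.4 to 84.5), with 81.4 CPM in w1 and 141 in w2. Smo had no UMI in Oligo and Hhip none in Peri. These clusters were not in the fit and no test was made.

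The wider pathway was read from lists of 81 entries in 6 groups. Of 9 genes for ligands and their release, the ligand genes Shh, Ihh and Dhh were at 5, 5 and 3 UMIs in all 12466 neurons and at 0 in RGL, where 0 allows up to 0.492 CPM, and none of the 3 was tested. Ihh and Dhh are named beside Shh after their values were seen. Of the 5 tested, 1 was higher and 1 lower in RGL than in the neuron clusters, both of the Dispatched family that releases ligand. Disp1, named after its value was seen, was the higher, at 22.1 CPM in RGL against 9.34 in neurons, and Disp2 the lower, at 4.43 against 42.9. In the neuroblasts Disp1 was at 24.1 CPM in NB1 and 18.1 in NB2, with intervals that overlap that of RGL. Sufu, which restrains the Gli proteins, was at 44.8 CPM in Astro, 73.9 in RGL, 127 in NPC and 43.9 in neurons. It was not called from Astro to RGL (0.74, SE 0.39), from RGL to NPC (0.44, SE 0.21) or against neurons, where the difference of 0.47 (SE 0.13, adjusted p 0.0011) was under the fold required. Of 27 signal transduction genes 8 were higher and 5 lower in RGL than in the neuron clusters, and 1 rose and 3 fell from RGL to NPC. Of 20 primary cilium genes 5 were higher and 1 lower in RGL than in neurons, and 1 rose and 5 fell from RGL to NPC. These splits stand beside the 26.0% and 21.9%, and the 13.7% and 15.9%, of all genes.

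Among other target genes, Mycn, Ccnd2 and Bcl2 were higher in RGL than in Astro. Mycn, a growth-promoting transcription factor, had no Astro UMI and RGL was at least 1.76 times higher. Ccnd2, a cyclin, stood at 41.8 CPM in Astro, 180.2 in RGL and 765 in NPC. From RGL to NPC 3 of the 8 tested in this group rose and 1 fell, where 13.7% of all genes were called higher and 15.9% lower. Those that rose were Ccnd2, by 1.78 on the log2 scale (SE 0.18), Mycn, by 1.71 (SE 0.31), and Foxm1. For Foxm1 NPC lay 83.5 times above RGL (counting interval 20.8 to 727, from 25 and 2 UMIs). Bcl2, an inhibitor of apoptosis, fell by 2.38 (SE 0.20). Sox2, named after its value was seen, had no UMI in any cluster of the fit, RGL included, so these counts say nothing of the gene.

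Among other receptor genes, Gpc5, a glypican, fell in both steps, from 12939 CPM in Astro to 3839 in RGL and 268 in NPC. Against the neurons, where 26.0% of all genes were called higher in RGL and 21.9% lower, the 3 glypicans listed were all called and split. Gpc5 and Gpc6, the latter named after its value was seen, were higher in RGL, at 3839 CPM against 79.2 and at 768 against 23.0. Gpc3 was lower, at 1 UMI against 17.4 CPM, a ratio of neurons to RGL of 106 (counting interval 19.0 to 4184). Of its 1447 neuronal UMIs 1184 lay in GCmat1, at 40.6 CPM, with GCyoung at 11.8. NB1, NB2 and GCimm1 stood at 0.459, 0.540 and 0.680 CPM, with intervals that overlap that of RGL. Arrb1, a beta-arrestin, fell from Astro to RGL by 0.95 (SE 0.24), and Prkar2b, a regulatory subunit of protein kinase A, stood at 88.4 CPM in neurons against 7.70 in RGL. Of the 7 tested relatives of the Gli factors, 5 were higher and 2 lower in RGL than in neurons, where 26.0% and 21.9% of all genes were, and 3 fell from RGL to NPC, where 15.9% did. Zic5, Zic2 and Zic4 led the former at 47.0, 44.1 and 22.3 CPM in RGL against 0.348, 0.720 and 0.528 in neurons. Glis3 fell from RGL to NPC by 2.43 (SE 0.23), and Glis1, at 20.9 CPM in Astro and 2.13 in RGL, was lower in RGL by 3.28 (SE 0.85, adjusted p 0.0059).

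The genes whose levels were most like each of the 9 were found by Pearson's r of log2(CPM + 1) over the 29 sums. These sums share libraries and clusters, so r is a description across cell types. Gli2 was matched by Lrp4 (r = 0.986), Wwtr1 (0.986) and Zcchc24 (0.982), Gli3 by Prdm16 (0.980), Kcnj10 (0.978) and Eif2ak2 (0.973), Gli1 by Sft2d2 (0.969), Copz2 and Folh1, and Ptch1 by Pnpla7 (0.960), Megf10 and Sugct. Gas1 was most like Kcnj10 (0.949), Boc Gm13111 (0.932), Cdon Faf1 (0.909), Smo Gna12 (0.900) and Hhip Gm20528 (0.899). Within the set, r lay between 0.81 and 0.93 among Gli1, Gli2, Gli3, Ptch1 and Boc. With these 5 genes Gas1 lay between 0.74 and 0.91 and Hhip between 0.57 and 0.72. Smo reached 0.55 at most, with Gli3, and Cdon lay between -0.13 and 0.31 with the 8 others.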

How the data were processed

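Gene by barcode UMI counts were deposited by the authors for each library (STARsolo 2.7.4a and the mm10 genome in the submitters' processing notes, with reads over exons and introns counted in the study's methods). The authors also deposited a table of log2 expression (scran size factors, 1 added) for the nuclei they kept, with cluster names and pseudo-time, and clusters were taken from it. Per the study's methods doublets found by scDblFinder, nuclei with few detected genes, low-quality nuclei, 2 clusters of w4 nuclei held to be a possible outlier animal and nuclei in small graph components were removed before that table was made, so no caller was run here. The 2679 barcodes outside the table entered no comparison. No column of another sample was present. UMIs were summed per library and cluster where at least 10 nuclei were present, giving 29 sums, 16 residual degrees of freedom and a common dispersion of 0.01424. They were fitted with edgeR 4.0.16 (TMM scaling, quasi-likelihood test, cluster and library as terms) in R 4.3.3 over 13513 genes past the filter on low counts, and in 10 comparisons calls needed a 1.5-fold difference or more with an adjusted p (Benjamini-Hochberg) no larger than 0.05. The comparison of RGL with neurons used the equally weighted mean of 7 neuron clusters. Intervals are exact Poisson or binomial ones at 95% and cover counting error only, and a count of 0 allows up to 3 counts. Levels and shares were also computed after 2000 UMIs were drawn from each nucleus.

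Alternatives were RLE scaling, DESeq2 1.42.0, no filter on low counts, no library term, a minimum of 20 nuclei, other fold thresholds, thinned counts, limma 3.58.1 on mean log2 expression, and each library left out. Genes named from the wider lists were the 3 largest called rises and falls per comparison from Astro to RGL, from RGL to NPC and against neurons, with Shh and Sufu always named. The gene whose promoter drives Cre and 1 gene of the wider lists are not reported here. Genes of like pattern were sought for members with at least 100 UMIs, 3 for each. The 9 genes and the lists were chosen with earlier results of these data known. Intervals, tables and figures used Python 3.11.15, numpy 2.4.6, scipy 1.17.1, pandas 2.3.3 and matplotlib 3.10.9.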

Additional observations from a re-analysis of the deposited data

Results flagged for a closer look

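The barcodes that the authors left out of their table were used in no comparison, and the 9 genes were read there as well. In these 2679 barcodes the levels were 2.00 CPM for Gli1, 12.6 for Gli2, 37.5 for Gli3, 45.5 for Ptch1, 16.0 for Smo, 2.50 for Gas1, 8.41 for Boc, 56.2 for Cdon and 6.16 for Hhip, each above the 0.127 CPM that a count of 0 allows. All 9 lay below the levels in RGL, and all but Smo and Cdon lay above those in the pooled neuron clusters. Of these barcodes 1628, with 15789413 UMIs, came from w4, against 410, 373 and 268 from w1, w2 and w8, with 2255912, 2973357 and 2534489 UMIs. Most of the UMIs over which the levels were pooled thus came from w4, but the counts of each gene were not split by library. By the study's methods the barcodes include doublets, low-quality nuclei and 2 clusters of w4 nuclei set aside as possibly from an outlier animal. These kinds of barcodes were not told apart here.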

How the results depend on the processing

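No called value changed sign under any alternative run, and no uncalled value became called with the opposite sign. Changes of sign among values that stayed uncalled were not counted. Over the 9 genes and 10 comparisons, 421 called values stayed called and 81 were no longer called, while 655 uncalled values stayed uncalled and 3 became called, Gli2 from Astro to RGL with RLE scaling and Gli3 from GCimm1 to GCimm2 with a minimum of 20 nuclei (-1.09) or without w1 (-1.16). Between RGL and the neuron clusters all 9 genes were called in every alternative but limma on mean log2 expression, where 3 were, and thinned counts, where all 8 tested were. Weeks could not be paired with one another, because each week is 1 pool and the weeks share replicate number 1 alone. The comparisons between clusters had the library as a term, and its removal is among the alternatives.

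Of the 9 genes, RLE scaling called 2 instead of 1 from Astro to RGL. DESeq2 called 1 instead of 2 from NB1 to GCimm1, 1 instead of 2 from GCimm1 to GCimm2, 2 instead of 5 from GCimm2 to GCyoung and 0 instead of 2 from GCyoung to GCmat1. Without the library term 0 instead of 1 were called from NB1 to NB2, 1 from GCimm1 to GCimm2 and 3 from GCimm2 to GCyoung. At a fold threshold of 2 the counts were 0 from NB1 to NB2, 0 from NB1 to GCimm1 and 1 from GCimm1 to GCimm2. Thinned counts, where Hhip did not pass the filter, gave 1 call from GCimm1 to GCimm2, 1 from GCimm2 to GCyoung, 1 from GCyoung to GCmat1 and 1 from GCmat1 to GCmat2. The limma fit of mean log2 values, whose differences are smaller for sparse genes and mostly fall under the fold threshold, called 2 from RGL to NPC, 1 from NPC to NB1 and 0 in each step from NB1 to NB2, NB1 to GCimm1, GCimm1 to GCimm2, GCimm2 to GCyoung, GCyoung to GCmat1 and GCmat1 to GCmat2. Leaving out 1 library gave 0 to 1 calls from NB1 to NB2, 1 to 2 from NB1 to GCimm1, 0 to 3 from GCimm1 to GCimm2, 1 to 5 from GCimm2 to GCyoung, 0 to 2 from GCyoung to GCmat1 and 1 to 2 from GCmat1 to GCmat2.

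On the wider lists, 8 calls from Astro to RGL became 4 with thinned counts, 2 with limma and 4 to 9 with 1 library left out (4 without w1, 5 without w2 and 5 without w4). The 19 from RGL to NPC became 11, 4 and 10 to 18, the lowest without w2, and the 38 against neurons became 4 with limma. Calls among all genes fell as well. From Astro to RGL 644 were higher and 651 lower of 13513, then 540 and 326 of 9201 with thinned counts and 85 and 155 of 13353 with limma. From RGL to NPC 1850 and 2142 became 1149 and 1448 with thinned counts and 101 and 221 with limma. Against neurons 3516 and 2956 became 261 and 377 with limma. Without thinning 8 instead of 4 genes were more frequent beside Gli1. Among all genes, the share of calls that were higher went from 50.1% to 42.3% (RLE) and 40.1% (DESeq2) from NPC to NB1, from 61.5% to 72.7% (DESeq2) from NB1 to NB2, from 49.1% to 37.2% from GCimm2 to GCyoung, from 41.5% to 24.5% from GCyoung to GCmat1 and from 41.3% to 55.4% from GCmat1 to GCmat2. The cause of these shifts was not tested. Fewer than 10 UMIs stood behind 6 of the 9 genes in GCmat2, 5 in NB2, 4 in Astro, 4 in GCimm1, 3 each in NB1, GCimm2 and GCyoung, 2 in GCmat1 and 1 in NPC.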
